A study of Mus musculus with 7 samples.

Results

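Neural stem cells (NSC) made from mouse fibroblasts with the reprogramming factors were compared with cells taken on day 6 of the same conversion. The comparison used 3 of the 7 libraries of the study, each the only library of its group. They were Tomato-positive NSC, Tomato-negative NSC and day 6. Gene levels are in RPKM (reads per kilobase of exon and per 1 M reads), taken as the mean over the exons of a gene with longer exons counting more. At 2 RPKM or more in 1 of the 3 libraries there were 16319 of 29686 genes, which were tested, 13510 of them protein coding. A gene was called where both NSC libraries differed from day 6 at least 4-fold in 1 direction, after 1 RPKM was added to each value. With 1 library a group there is no replicate check, so no difference has a test, and the line, its culture and its library cannot be told apart from the group.

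Tomato-positive and Tomato-negative NSC were mechanically subcloned lines grown without feeders, so each stands for 1 line or a few and not for all converted cells. Day 6 cells were Nanog-CreER reporter fibroblasts that had been given doxycycline and 4OHT from day 1, sorted by flow cytometry as tdTomato positive and also free of feeders. All 3 groups were of strain B6/129 and carried the Rosa26-TdTomato allele from a B6 mother and Col1a-OSKM, the doxycycline-driven factors Oct4, Sox2, Klf4 and Myc, from a 129 father. CreER under Nanog control removes the stop before tdTomato only while 4OHT is present, so Tomato marks descent from a cell with Nanog activity and not present Nanog expression. The labels give no age or sex of the embryos behind these 3 groups. They name both the 5 PRIME PerfectPure kit and Trizol for RNA extraction without saying which served which library, and TruSeq v2 for all libraries. Brain NSC of strain BDF2, for which the labels give 2 different embryonic days, mouse embryonic fibroblasts (MEF) and induced pluripotent stem cells (iPSC), both of strain A12 (Mbd3 flox/-), and v6.5 embryonic stem cells (ESC) with MEF feeders are given beside some results for their levels. The labels mark feeders as uncertain for iPSC.

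During reprogramming, fibroblasts pass through a stage in which epithelial genes are switched on and mesenchymal genes are switched off, and a part of the cells goes on to activate the pluripotency network around Oct4, Sox2 and Nanog. Neural stem cells, and the radial glia of the embryonic brain that they resemble in culture, keep Sox2 but not Oct4. They divide in response to Fgf and Egf, hold back differentiation through Notch signals and Hes factors, and surround themselves with a matrix of proteoglycans and tenascins.

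Both NSC libraries stood far above day 6 in the lipid carrier of radial glia, in Olig transcription factors and in brain matrix genes. They stood far below it in Oct4 and in epithelial adhesion genes. In all, 1394 genes (8.54% of those tested) were at least 4-fold higher in both NSC libraries than on day 6, and 853 (5.23%) were at least 4-fold lower, so that 62.0% of the called genes were higher. At 16-fold 245 genes were higher and 220 lower. The median log2 ratio over all tested genes was 0.41, and scaling by median-of-ratios size factors moved it to -0.02. With that scaling 996 genes were higher and 1178 lower, so 45.8% of the calls were higher. Log2 ratios of gene lists below are therefore given as deposited, to be read against 0.41.

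Promoters of 4 genes are shown, because these genes are among those furthest from day 6 and stand for neural identity and for the epithelial state. Each runs from 250 bases before to 50 bases after the RefSeq start (GRCm38.p6), is written 5′ to 3′ on the strand of the gene and has in capitals every match to 5 motifs searched on both strands. The motifs were AACCNGTT, as bound by grainyhead factors, ATGCAAAT, the octamer of Oct factors, CATTGT, a Sox motif, CAGCTG, an E-box, and TATAAA. Fabp7 lies at chr10:57784673-57784972 on the plus strand, Olig2 at chr16:91225300-91225599 plus, Ly6g6c at chr17:35067075-35067374 plus and Epcam at chr17:87635729-87636028 plus.
Fabp7: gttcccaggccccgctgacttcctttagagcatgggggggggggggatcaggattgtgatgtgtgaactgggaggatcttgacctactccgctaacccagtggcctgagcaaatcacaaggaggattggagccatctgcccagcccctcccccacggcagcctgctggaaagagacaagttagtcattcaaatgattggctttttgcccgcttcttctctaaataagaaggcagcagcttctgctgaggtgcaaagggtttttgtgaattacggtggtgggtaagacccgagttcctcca
Olig2: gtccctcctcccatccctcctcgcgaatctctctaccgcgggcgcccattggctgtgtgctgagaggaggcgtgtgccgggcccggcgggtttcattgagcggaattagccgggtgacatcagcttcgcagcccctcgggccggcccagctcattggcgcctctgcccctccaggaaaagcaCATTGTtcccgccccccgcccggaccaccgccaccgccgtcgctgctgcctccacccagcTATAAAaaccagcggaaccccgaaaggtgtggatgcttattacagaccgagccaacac
Ly6g6c: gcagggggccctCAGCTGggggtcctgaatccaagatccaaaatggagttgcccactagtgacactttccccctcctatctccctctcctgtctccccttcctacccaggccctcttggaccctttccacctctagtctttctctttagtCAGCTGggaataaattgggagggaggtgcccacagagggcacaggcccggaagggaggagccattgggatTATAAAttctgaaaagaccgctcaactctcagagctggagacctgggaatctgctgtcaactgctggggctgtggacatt
Epcam: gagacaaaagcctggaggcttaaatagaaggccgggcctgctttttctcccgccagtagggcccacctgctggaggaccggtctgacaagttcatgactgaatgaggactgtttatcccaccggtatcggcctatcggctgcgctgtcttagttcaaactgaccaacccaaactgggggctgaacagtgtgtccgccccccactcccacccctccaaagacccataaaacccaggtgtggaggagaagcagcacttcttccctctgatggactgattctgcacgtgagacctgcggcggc
The Olig2 window held 1 CATTGT and 1 TATAAA, the Ly6g6c window 2 CAGCTG and 1 TATAAA, and the windows of Fabp7 and Epcam none of the 5. They differed in CG dinucleotides, of which Olig2 had 25, Epcam 11, Fabp7 6 and Ly6g6c 2.

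RefSeq promoters were matched for 949 genes called higher (1281 promoters), 484 called lower (620 promoters) and 10709 tested genes (13717 promoters). Replication-dependent histones were left out of the lower set but not of the other sets. The median number of CG dinucleotides was 17 in promoters of higher genes, 9 in those of lower genes and 20 in all. CATTGT was in 7.81% of the promoters of higher genes, 11.9% of those of lower genes and 7.76% of all. ATGCAAAT was in 1.95%, 3.06% and 1.41% of the same 3 sets, AACCNGTT in 2.26%, 2.42% and 1.84%, CAGCTG in 18.0%, 20.0% and 15.4% and TATAAA in 8.74%, 11.8% and 7.57%. Each of the 5 thus had its largest share in promoters of lower genes. In promoters of higher genes CATTGT was about as frequent as in all promoters, and the other motifs were somewhat more frequent. The differences were not tested. None of the motifs contains another, and the matches describe the windows alone.

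**Figure D1:**
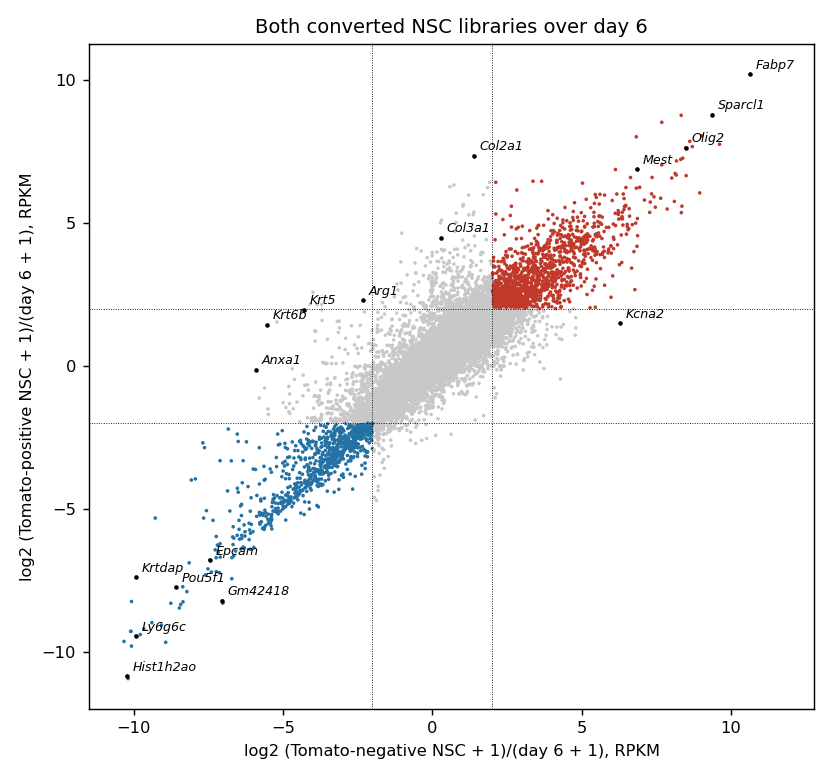
Log2 ratio of gene RPKM with 1 added, Tomato-positive NSC over day 6 (vertical axis) and Tomato-negative NSC over day 6 (horizontal axis), 1 point per tested gene. Red points are the 1394 genes at least 4-fold higher in both NSC libraries, blue points the 853 at least 4-fold lower in both, grey points all others, dotted lines mark 4-fold, and labelled genes are drawn in black, among them the NSC genes at the upper right and keratins that differ between the NSC libraries.

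The 3 libraries were checked for depth and evenness first. The depth, inferred from the steps of the values, was 19 M reads in Tomato-positive NSC, 42 M in Tomato-negative NSC and 46 M on day 6, so that 2 RPKM over 1 kilobase stands for 38, 84 and 92 reads. Day 6 stood apart from the other 6 libraries in 3 ways. Gm42418, a gene model over ribosomal RNA, took 8.82% of its summed exon reads against 0.0258% to 0.0657% in the others. Replication-dependent histones took 0.345% against at most 0.0109%. The exon levels within genes were uneven on day 6, where 14.0% of 51163 exons stood at least 2-fold off the 7-library median, against 0.227% to 3.90% in the other libraries. The part of these features in the gene results was not tested. As the samples are bulk RNA, fewer cells of a type and less RNA per cell cannot be told apart.

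**Figure D2:**
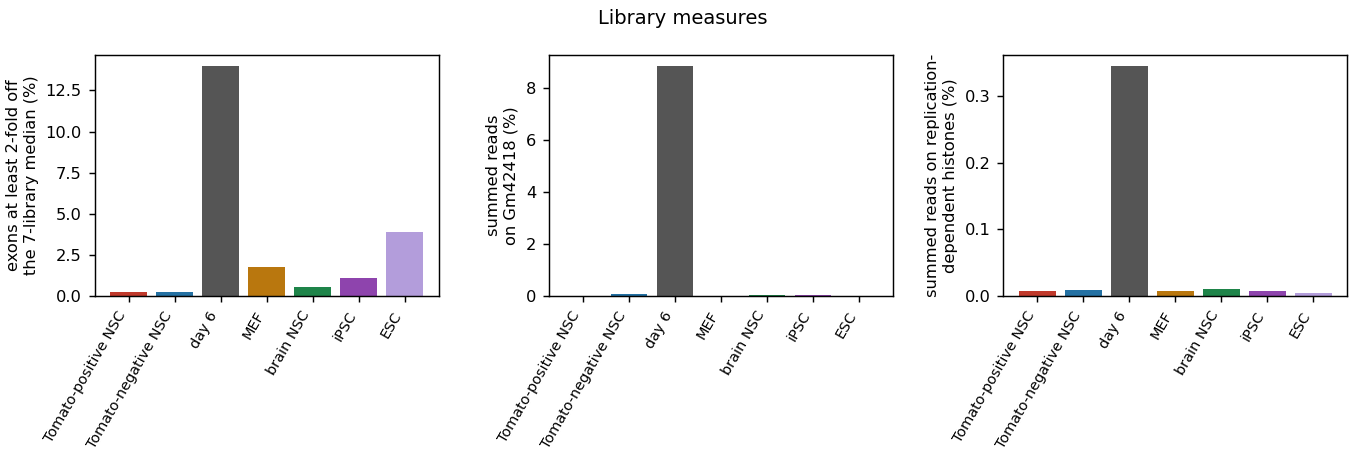
Day 6 beside the other 6 libraries: percent of 51163 exons at least 2-fold off the 7-library median of their level within the gene (left), percent of summed exon reads on Gm42418 (centre) and on replication-dependent histones (right), 1 bar per library, without replicates. Day 6 is the highest bar in each panel, at 14.0%, 8.82% and 0.345%.

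Markers were set against the labels. All 9 neural stem cell markers (Nes, Sox1, Sox2, Sox9, Pax6, Fabp7, Hes5, Olig2 and Rfx4) reached 2 RPKM in both NSC libraries, and 5 of them did on day 6. Pou5f1 and Nanog, markers of pluripotent cells, stood at 3.13 and 5.27 RPKM in Tomato-positive NSC and at 1.32 and 1.37 RPKM in Tomato-negative NSC, against 886 and 67.2 RPKM on day 6. Of the epithelial markers, Cdh1 and Epcam were at 2.19 and 4.08 RPKM in Tomato-positive NSC and at 0.791 and 2.21 RPKM in Tomato-negative NSC, against 275 and 559 RPKM on day 6. Fibroblast markers were not absent from Tomato-positive NSC, where Col1a1 stood at 123 and Col3a1 at 810 RPKM, against 10.7 and 43.7 RPKM in Tomato-negative NSC and 15.03 and 35.2 RPKM on day 6. The astrocyte markers Gfap and Aqp4 reached at most 6.71 RPKM in any of the 3 libraries. S100b, a further astrocyte marker, was at least 4-fold higher in both NSC libraries than on day 6. It stood at 3.55 RPKM in Tomato-positive NSC and 12.82 RPKM in Tomato-negative NSC, and had no read on day 6. Ptprc, which marks leukocytes, was at 0.0571 and 0.0646 RPKM in Tomato-positive and Tomato-negative NSC and had no read on day 6. Both NSC libraries thus carried the markers of their label. Fibroblast genes stood beside them in both, mostly at higher levels in Tomato-positive NSC. Of 28 fibroblast matrix and contractile genes, 27 reached 2 RPKM in Tomato-positive NSC and 24 in Tomato-negative NSC. On day 6 there were 20, and in brain NSC 12.

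Among the genes highest relative to day 6, Fabp7, the brain fatty acid binding protein of radial glia (chromosome 10, 57784881 to 57788450, mm10), stood at 6511 RPKM in Tomato-positive NSC and 8761 RPKM in Tomato-negative NSC, against 4.47 RPKM on day 6. Its log2 ratios with 1 RPKM added, 10.22 and 10.64 in Tomato-positive and Tomato-negative NSC, were the highest of the named genes. Sparcl1, a secreted matrix protein of astrocytes, stood at 450 and 679 RPKM in Tomato-positive and Tomato-negative NSC and at 0.0158 RPKM on day 6. Gap43, a membrane protein of growth cones, was at 585 and 432 RPKM in Tomato-positive and Tomato-negative NSC, against 0.337 RPKM on day 6. All 3 were low on day 6 and abundant in both lines. The transcription factor Olig2, whose promoter is shown above, had 262 RPKM in Tomato-positive NSC, 474 RPKM in Tomato-negative NSC and 0.323 RPKM on day 6. Its neighbour Olig1 had 372, 730 and 0.401 RPKM in the same libraries. Both Olig genes were therefore higher in Tomato-negative than in Tomato-positive NSC, and far above day 6 in each.

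Several of the highest genes act on the cell surface or outside the cell. Tnc, the matrix glycoprotein tenascin C, stood at 819 RPKM in Tomato-positive NSC and 455 RPKM in Tomato-negative NSC, against 1.21 RPKM on day 6. Plat, the tissue plasminogen activator, was at 329 and 557 RPKM in Tomato-positive and Tomato-negative NSC and at 0.412 RPKM on day 6. Gpm6a, a neuronal membrane glycoprotein, had 131 and 205 RPKM in Tomato-positive and Tomato-negative NSC and no read on day 6, where 3 reads give 0.0203 RPKM. None of these 3 was above 1.21 RPKM on day 6, whereas Tnc was at 543 RPKM in MEF. Slc1a3, the glial glutamate transporter, stood at 232 and 650 RPKM in Tomato-positive and Tomato-negative NSC, against 1.26 RPKM on day 6. Rab3b, a small GTPase of vesicle release, was at 278 and 567 RPKM in Tomato-positive and Tomato-negative NSC and at 0.357 RPKM on day 6, with 34.3 RPKM in brain NSC. Rab3b was thus higher in the converted lines than in the brain library, while Slc1a3 was higher in brain NSC at 1936 RPKM.

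The remaining genes of the highest 15 are metabolic or metal-binding. Mt3, the brain metallothionein, had 322 RPKM in Tomato-positive NSC and 1170 RPKM in Tomato-negative NSC, against 0.487 RPKM on day 6. Slc25a18, a mitochondrial glutamate carrier, had 172 and 367 RPKM in Tomato-positive and Tomato-negative NSC and 0.150 RPKM on day 6. Acsbg1, an acyl-CoA synthetase of brain, had 222 and 444 RPKM in Tomato-positive and Tomato-negative NSC and 0.536 RPKM on day 6. All 3 were about as high in brain NSC, between 354 and 494 RPKM, so the brain library shared these levels. Car3, a carbonic anhydrase of muscle and fat, differed in this. It stood at 292 RPKM in Tomato-positive NSC and 127 RPKM in Tomato-negative NSC, against 0.126 RPKM on day 6, and brain NSC had 10.9 RPKM. Mest, an imprinted gene expressed from the paternal allele, was at 1553 and 1522 RPKM in Tomato-positive and Tomato-negative NSC, against 12.1 RPKM on day 6, with 142 RPKM in brain NSC.

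**Figure D3:**
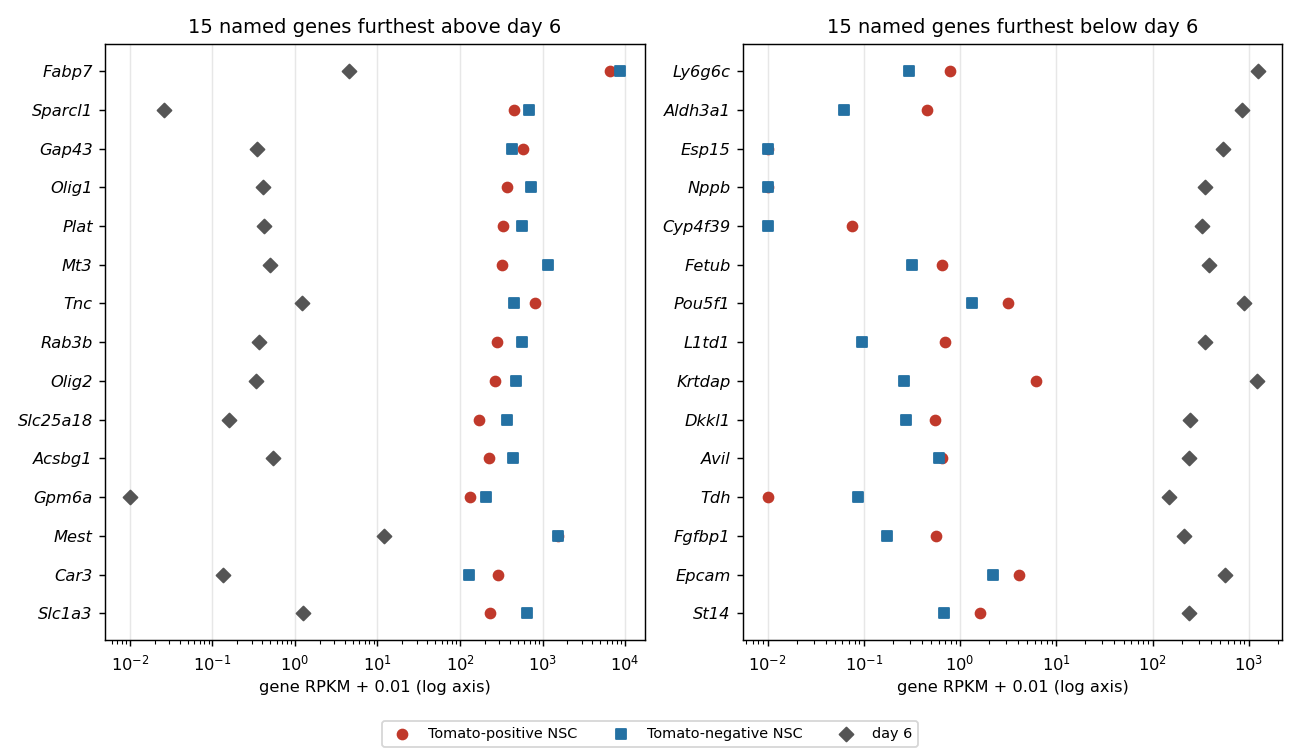
Gene RPKM with 0.01 added, on a log axis, of the 15 named genes furthest above day 6 (left) and the 15 furthest below it (right), in Tomato-positive NSC (circles), Tomato-negative NSC (squares) and day 6 (diamonds), 1 library each. The day 6 points stand apart from both NSC points in every row, and points at 0.01 are genes without a read.

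Over the called genes as a whole, those higher had median levels of 22.5 RPKM in Tomato-positive NSC and 28.8 RPKM in Tomato-negative NSC, against 1.01 RPKM on day 6. Of the 1394 higher genes, 101 stood under 2 RPKM in brain NSC. MEF reached 2 RPKM in 1086 of the 1394. No read on day 6 was found for 105 of the 1394. Genes called lower had medians of 0.802 RPKM in Tomato-positive NSC and 0.410 RPKM in Tomato-negative NSC, against 26.7 RPKM on day 6, and 545 of the 853 stood under 2 RPKM in both NSC libraries. At 2 RPKM or more in both iPSC and ESC were 512 of the lower genes, and 194 were under 2 RPKM in both. In 150 every library but day 6 was under 2 RPKM. The same counts were not made over all tested genes, so they are not read as traits of the called genes. At the edge of the call, the smaller of the log2 ratios was 2.002 in the nearest higher gene inside and 1.998 in the nearest outside, and -2.0002 and -1.997 in the nearest lower genes, with 297 and 110 genes within 0.1 of the edge.

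Lists of genes with a common role were counted at 2-fold or more in both NSC libraries, where 24.4% of all tested genes were higher and 11.2% lower. Where a named list member is not among the 6 with the largest ratios, it was chosen after its values were seen. Of 30 neural stem cell and radial glia genes 26 were higher and none lower, with a median log2 ratio of 3.83. Their summed level was 12126 RPKM in Tomato-positive NSC and 16026 RPKM in Tomato-negative NSC, against 306 RPKM on day 6. The filament gene Nes stood at 225 and 451 RPKM in Tomato-positive and Tomato-negative NSC, against 34.9 RPKM on day 6. Pax6, a regional factor of the neural tube, was at 6.92 and 14.7 RPKM in Tomato-positive and Tomato-negative NSC and 2.05 RPKM on day 6. In MEF, Nes stood at 22.8 and Pax6 at 2.36 RPKM. Rfx4, a factor of dorsal patterning and cilia, stood at 112 and 208 RPKM in Tomato-positive and Tomato-negative NSC, against 1.75 RPKM on day 6. The 4 list members not called were Sox2, Prom1, Lhx2 and Nr2e1. Lhx2 and Nr2e1, both forebrain factors, reached 13.1 and 5.17 RPKM in Tomato-negative NSC but 0.950 and 0.0724 RPKM in Tomato-positive NSC, against 0.164 and 0.00997 RPKM on day 6.

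Brain proteoglycans and neural adhesion genes were higher in 17 of 19 tested, with none lower and a median log2 ratio of 3.77. Bcan and Ncan, the core proteins brevican and neurocan, stood at 65.8 and 79.5 RPKM in Tomato-positive NSC and at 496 and 200 RPKM in Tomato-negative NSC. On day 6 Bcan had no read, where 3 reads give 0.0208 RPKM, and Ncan stood at 0.233 RPKM. Ptprz1, a receptor phosphatase that binds tenascin and pleiotrophin, was at 249 RPKM in Tomato-positive NSC, 935 RPKM in Tomato-negative NSC and 5.01 RPKM on day 6. The brain matrix genes were higher in Tomato-negative NSC in these cases, while Tnc ran the other way. Astn1, which guides migration along glia, had 58.6 and 86.9 RPKM in Tomato-positive and Tomato-negative NSC, against 0.0219 RPKM on day 6, and the adhesion gene Nrcam had 35.6 and 41.3 RPKM, against 0.158 RPKM. The members not called, Acan and Hapln1, were high in Tomato-positive NSC alone, at 3.29 and 15.9 RPKM, with 0.272 and 0.338 RPKM in Tomato-negative NSC and 0.198 and 0.0307 RPKM on day 6.

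Amino acid and GABA transporters were higher in 9 of 12 tested, and 1 was lower, with a median log2 ratio of 2.80. The GABA transporter Slc6a11 stood at 40.4 RPKM in Tomato-positive NSC and 323 RPKM in Tomato-negative NSC, and had no read on day 6, where 3 reads give 0.0158 RPKM. It was thus several times higher in Tomato-negative than in Tomato-positive NSC. Slc38a3, a glutamine transporter, had 42.5 and 84.8 RPKM in Tomato-positive and Tomato-negative NSC, against 0.889 RPKM on day 6. The lower member was Slc1a5, a carrier of neutral amino acids, at 28.8 and 31.3 RPKM in Tomato-positive and Tomato-negative NSC, against 81.1 RPKM on day 6. Of 16 potassium and sodium channel and pump genes 11 were higher and none lower (median 2.24), among them Kcnd3, a potassium channel of fast inactivating currents, at 24.1 and 91.9 RPKM in Tomato-positive and Tomato-negative NSC, against 0.0229 RPKM on day 6. Atp1b2, a glial subunit of the sodium pump, was at 39 and 198 RPKM in Tomato-positive and Tomato-negative NSC and 0.691 RPKM on day 6.

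Genes of differentiated neural cells were mixed. Of 13 oligodendrocyte lineage genes 10 were higher and 2 lower. The higher members included factors that act early in the lineage, such as Sox10 at 5.45 and 4.55 RPKM in Tomato-positive and Tomato-negative NSC against 0.00801 RPKM on day 6, and Sox8 at 64.7 and 82.6 RPKM against 0.713 RPKM. Nkx2-2, which directs ventral progenitors towards this lineage, had 8.78 and 15.6 RPKM in Tomato-positive and Tomato-negative NSC and no read on day 6, where 3 reads give 0.0259 RPKM. The 2 lower members, Mbp and Myrf, belong to myelinating cells. Myrf was at 1.31 and 1.64 RPKM in Tomato-positive and Tomato-negative NSC, against 22.3 RPKM on day 6. Cnp, a further gene of myelin, was higher, at 23.4 and 61.8 RPKM in Tomato-positive and Tomato-negative NSC, against 0.858 RPKM on day 6. The list thus did not divide cleanly into early and myelin genes. Astrocyte genes were higher in 7 of 13 and lower in 1, Cd44, with Aldoc at 267 and 282 RPKM in Tomato-positive and Tomato-negative NSC against 8.97 RPKM on day 6. Of 14 neuron genes 8 were higher and 4 lower, so the list did not move as a whole. Stmn2 and Nefl, a microtubule regulator and a neurofilament chain, were lower, at 27.6 and 4.62 RPKM in Tomato-positive NSC and 5.75 and 0.782 RPKM in Tomato-negative NSC, against 609 and 97.3 RPKM on day 6. Map2, a dendritic microtubule protein, was higher at 144 and 292 RPKM in Tomato-positive and Tomato-negative NSC, against 27.2 RPKM on day 6.

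Proneural and related bHLH genes were higher in 6 of 10 tested and lower in 1. Id3, an inhibitor of bHLH factors and a target of Bmp signals, was at 308 and 158 RPKM in Tomato-positive and Tomato-negative NSC, against 4.86 RPKM on day 6. MEF had 368 RPKM of Id3. Neurog1, Neurog2, Neurod1 and Neurod4, factors of committed neuronal precursors, stayed under 2 RPKM in all 3 libraries.

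Factors of regional identity differed between the lines. Of 9 forebrain genes tested 3 were higher, none above 5.61 RPKM in either NSC library. Dlx1 was among them and was no longer called with median exons, and Emx1 had no read in any of the 3 libraries. Of 15 midbrain, hindbrain and spinal genes 7 were higher and 1, Fgf8, lower; scaled by median-of-ratios 4 were lower. Gbx2, an anterior hindbrain factor, had 9.62 and 21.9 RPKM in Tomato-positive and Tomato-negative NSC, against 1.16 RPKM on day 6. Dbx2, a factor of intermediate spinal progenitors, had 8.55 and 18.9 RPKM in Tomato-positive and Tomato-negative NSC, against 0.151 RPKM on day 6. Nkx6-1, a ventral factor, reached 14.8 RPKM in Tomato-positive NSC, with 0.125 RPKM in Tomato-negative NSC and 1.49 RPKM on day 6.

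The Hox genes, which mark position along the hindbrain and trunk, divided the 2 NSC libraries. Only Hoxa2 was higher in both, at 23.4 and 12.3 RPKM in Tomato-positive and Tomato-negative NSC against 1.16 RPKM on day 6. Hoxc4 alone was lower in both, at 1.21 and 0.0349 RPKM against 9.92 RPKM. Of 30 Hox genes, 20 reached 2 RPKM in Tomato-positive NSC and 2 in Tomato-negative NSC, against 12 on day 6. MEF had 26 and brain NSC 12. The summed levels were 157 RPKM in Tomato-positive NSC, 21.4 RPKM in Tomato-negative NSC and 69.4 RPKM on day 6. Tomato-positive exceeded Tomato-negative NSC in 26 of the 30. The same count was not made over all tested genes, where the median log2 ratio of Tomato-positive over Tomato-negative NSC was 0.176. Hoxb9, a trunk gene, had no read in Tomato-negative NSC but 9.98 RPKM in Tomato-positive NSC and 2.52 RPKM on day 6.

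Fibroblast matrix and contractile genes also separated the lines. At least 2-fold higher in both were 13 of 27 tested, and none was lower, with a median log2 ratio of 2.30. Against day 6 Tomato-positive NSC alone was higher in 24, and Tomato-negative NSC alone was higher in 13 and lower in 3. The sums were 7621 RPKM in Tomato-positive NSC and 3187 RPKM in Tomato-negative NSC, against 949 RPKM on day 6 and 59596 RPKM in MEF. Vim and Cdh2, an intermediate filament and the neural and mesenchymal cadherin, are also expressed in neural stem cells. Vim stood at 2637 and 1719 RPKM in Tomato-positive and Tomato-negative NSC, against 86.3 RPKM on day 6, and Cdh2 at 141 and 105.5 RPKM, against 1.37 RPKM. Brain NSC had 1176 RPKM of Vim and 71.6 RPKM of Cdh2, so both genes were also high in NSC from brain. Postn, a matrix protein of fibroblasts, was at 223 and 10.4 RPKM in Tomato-positive and Tomato-negative NSC and 1.60 RPKM on day 6, and brain NSC had 0.417 RPKM. Collagen genes split in the same way, with Col1a1 at 123 RPKM in Tomato-positive NSC, 10.7 RPKM in Tomato-negative NSC and 15.03 RPKM on day 6, and Thy1, a fibroblast surface protein, at 89.3, 15.03 and 8.04 RPKM in the same libraries. The part of fibroblast-like cells in the Tomato-positive result was not tested.

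**Figure D4:**
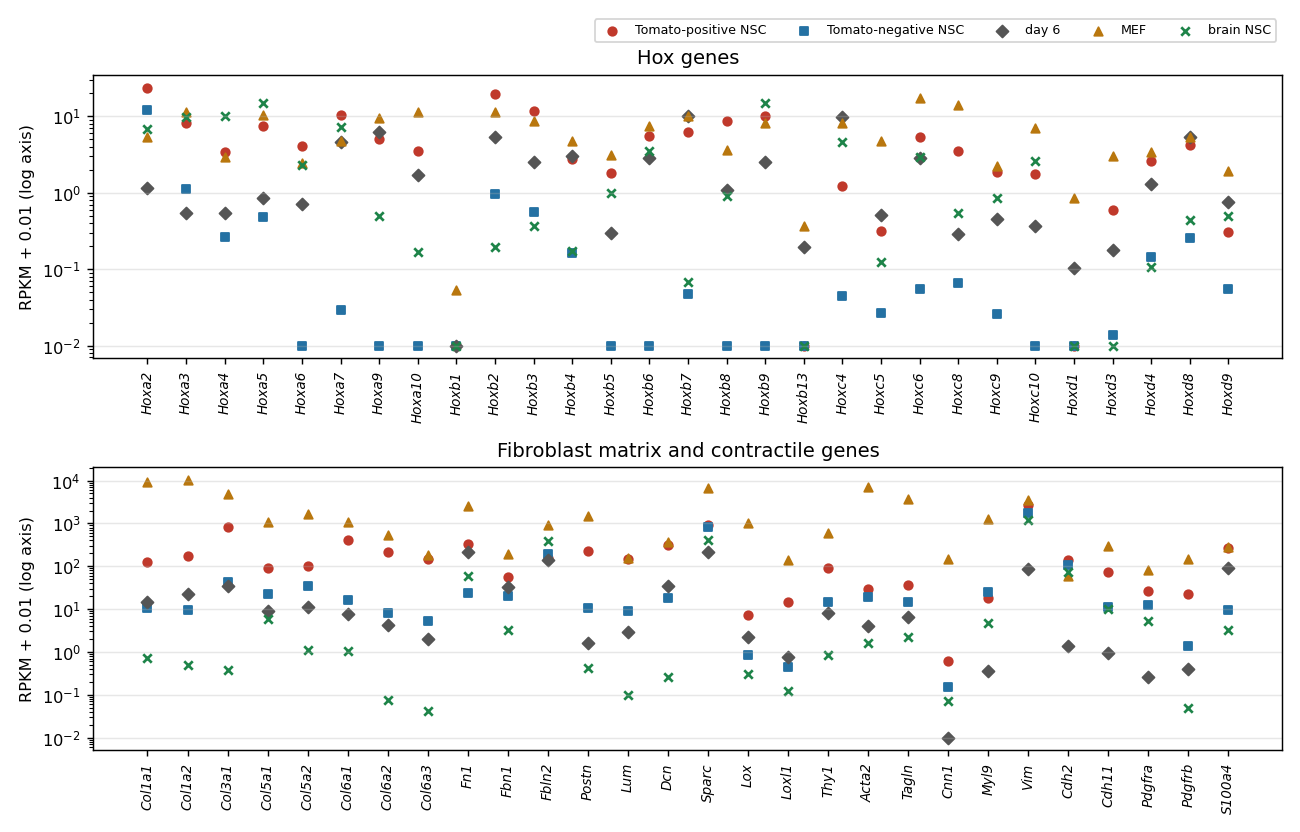
RPKM with 0.01 added, on a log axis, of Hox genes (top, 1 of the 30 listed not drawn) and 28 fibroblast matrix and contractile genes (bottom) in Tomato-positive NSC, Tomato-negative NSC, day 6, MEF and brain NSC, 1 library each. Tomato-positive NSC exceeds Tomato-negative NSC in 26 of the 30 listed Hox genes and in 26 of the 28 fibroblast genes, a count not made over all tested genes. MEF is highest in most fibroblast genes.

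Mesenchymal transition factors were higher in 4 of 13 tested and lower in none. Zeb1, a repressor of epithelial genes that neural stem cells also express, stood at 98.9 and 255 RPKM in Tomato-positive and Tomato-negative NSC, against 1.63 RPKM on day 6. Zeb2 was at 12.7 and 18.0 RPKM in Tomato-positive and Tomato-negative NSC and 0.378 RPKM on day 6. Snai1 and Twist1, the repressors more typical of mesenchyme, were not called, at 15.03 and 22.3 RPKM in Tomato-positive NSC and 0.661 and 4.42 RPKM in Tomato-negative NSC, against 1.58 and 4.51 RPKM on day 6.

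Pluripotency genes were low in both NSC libraries. Of the 4 reprogramming factors, Pou5f1 and Klf4 were lower and Sox2 and Myc were not called. Pou5f1 (Oct4) stood at 3.13 RPKM in Tomato-positive NSC and 1.32 RPKM in Tomato-negative NSC, against 886 RPKM on day 6. Klf4 stood at 3.52 and 4.97 RPKM in Tomato-positive and Tomato-negative NSC, against 82.7 RPKM on day 6. Sox2, which neural stem cells and pluripotent cells share, was at 116 and 120 RPKM in Tomato-positive and Tomato-negative NSC and at 65.4 RPKM on day 6. Myc was at 90.5 and 68.5 RPKM in Tomato-positive and Tomato-negative NSC, against 179 RPKM on day 6. Reads of the OSKM transgene and of the endogenous genes were not separated, and doxycycline was present until day 6. All 13 naive pluripotency genes tested were lower, with a median log2 ratio of -3.41. Tdh, a threonine dehydrogenase of mouse pluripotent cells, had no read in Tomato-positive NSC, where 3 reads give 0.0839 RPKM, and 0.0759 RPKM in Tomato-negative NSC, against 149 RPKM on day 6. Nanog stood at 5.27 and 1.37 RPKM in Tomato-positive and Tomato-negative NSC and 67.2 RPKM on day 6, where iPSC had 772 RPKM. Fgf4, a growth factor that Oct4 and Sox2 regulate, was at 0.0695 and 0.0314 RPKM in Tomato-positive and Tomato-negative NSC, against 36.5 RPKM on day 6.

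Of 17 general pluripotency genes tested 16 were lower and 1 was higher, with a median of -2.95. L1td1, an RNA-binding protein, stood at 0.679 and 0.0868 RPKM in Tomato-positive and Tomato-negative NSC, against 354 RPKM on day 6, which exceeded the 232 RPKM of iPSC. Tdgf1, the Nodal co-receptor Cripto, was at 0.438 and 0.0248 RPKM in Tomato-positive and Tomato-negative NSC and 51.0 RPKM on day 6. The higher member was Otx2, which primed pluripotent cells and the anterior neural tube share, at 3.65 and 3.43 RPKM in Tomato-positive and Tomato-negative NSC. It had no read on day 6, where 3 reads give 0.0191 RPKM. Among germ layer genes, T (brachyury), the factor of primitive streak and notochord, stood at 115 RPKM in Tomato-positive NSC and 12.6 RPKM in Tomato-negative NSC, against 0.308 RPKM on day 6. Brain NSC had 0.425 RPKM, and no library but the converted lines was above 1.27 RPKM. Foxa2 and Shh, 2 further genes of the notochord and floor plate that were chosen after their values were seen, were at 7.48 and 38.3 RPKM in Tomato-positive NSC and 0.727 and 1.34 RPKM in Tomato-negative NSC, and had no read on day 6.

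The genes lowest relative to day 6 included genes of stratified epithelium, of pluripotent cells and of secreted proteins. Ly6g6c, a Ly6 family surface protein whose promoter is shown above, stood at 0.775 and 0.285 RPKM in Tomato-positive and Tomato-negative NSC, against 1242 RPKM on day 6. Krtdap, a secreted protein of differentiating keratinocytes, was at 6.20 and 0.253 RPKM in Tomato-positive and Tomato-negative NSC and 1208 RPKM on day 6. Aldh3a1, an aldehyde dehydrogenase of cornea and stomach, was at 0.444 and 0.0529 RPKM in Tomato-positive and Tomato-negative NSC, against 847 RPKM on day 6. None of these 3 exceeded 25.3 RPKM in MEF, iPSC or ESC, so they were high on day 6 alone among the 7 libraries. Nppb, which encodes a natriuretic peptide, had no read in either NSC library, where 3 reads give 0.202 RPKM in Tomato-positive and 0.0915 RPKM in Tomato-negative NSC, against 353 RPKM on day 6. Fetub, a secreted protease inhibitor, stood at 0.632 and 0.308 RPKM in Tomato-positive and Tomato-negative NSC, against 387 RPKM on day 6, and iPSC and ESC had 60.8 and 95.6 RPKM. Others of the lowest 15 were Cyp4f39, an enzyme of skin lipids, Avil, an actin-binding protein, Dkkl1, Fgfbp1 and St14, a membrane protease of epithelia, between 0 and 1.61 RPKM in the NSC libraries and between 211 and 324 RPKM on day 6. Esp15 is set apart, since its exons of 77 and 1054 bases both held 9358 day 6 reads, so that the read number did not follow exon length. It lies on chromosome 17 at 39640954, on the same chromosome as Gm42418 at 39846958, and had no NSC read; the cause was not tested.

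Junction and adhesion genes of epithelia were lower in 18 of 19 tested, with none higher and a median log2 ratio of -4.72. Epcam stood at 4.08 RPKM in Tomato-positive NSC and 2.21 RPKM in Tomato-negative NSC, against 559 RPKM on day 6. Cdh1, E-cadherin, was at 2.19 and 0.791 RPKM in Tomato-positive and Tomato-negative NSC, against 275 RPKM on day 6. The tight junction proteins Cldn4 and Cldn6 were at 0.669 and 1.64 RPKM in Tomato-positive NSC and 0.0790 and 1.46 RPKM in Tomato-negative NSC, against 74.7 and 102 RPKM on day 6. The exception was Cgn, cingulin, at 37.1 and 50.9 RPKM in Tomato-positive and Tomato-negative NSC and 33.8 RPKM on day 6, with 174 RPKM in brain NSC. Desmosome and keratin genes were lower in 14 of 16, with a median of -3.52. Krt17 was at 26.9 RPKM in Tomato-positive NSC, 0.798 RPKM in Tomato-negative NSC and 1112 RPKM on day 6, and the desmosome linker Dsp at 2.15, 0.242 and 71.7 RPKM in the same libraries. Both were higher in Tomato-positive than in Tomato-negative NSC, though far under day 6. The 2 members not called were Krt18, at 34.8 RPKM in Tomato-positive NSC and 2.62 RPKM in Tomato-negative NSC, against 63.1 RPKM on day 6, and Krt5, which was above day 6 in Tomato-positive NSC and is described below with Krt6a and Krt6b.

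Factors that control epithelial genes were lower in all 13 tested, with a median of -3.65. Grhl2, a grainyhead factor, stood at 0.345 and 0.0646 RPKM in Tomato-positive and Tomato-negative NSC, against 17.8 RPKM on day 6. Ehf, an Ets factor of epithelia, was at 0.272 RPKM in Tomato-positive NSC and had no read in Tomato-negative NSC, where 3 reads give 0.0142 RPKM, against 34.8 RPKM on day 6. The epithelial splicing factor Esrp1 was at 0.643 and 0.128 RPKM in Tomato-positive and Tomato-negative NSC and 29.4 RPKM on day 6. Its paralogue Esrp2 was at 1.68 and 1.30 RPKM in Tomato-positive and Tomato-negative NSC and 22.4 RPKM on day 6. Laminin, integrin and basement membrane genes were higher in 5 of 24 and lower in 5, against 2 higher and 8 lower when scaled by median-of-ratios factors. Those lower included Itgb4, an integrin of the hemidesmosomes of epithelia, at 1.26 RPKM in Tomato-positive NSC and 0.223 RPKM in Tomato-negative NSC, against 174 RPKM on day 6. Itga7, a laminin receptor, was higher, at 21.2 and 11.1 RPKM in Tomato-positive and Tomato-negative NSC, against 0.0760 RPKM on day 6.

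**Figure D5:**
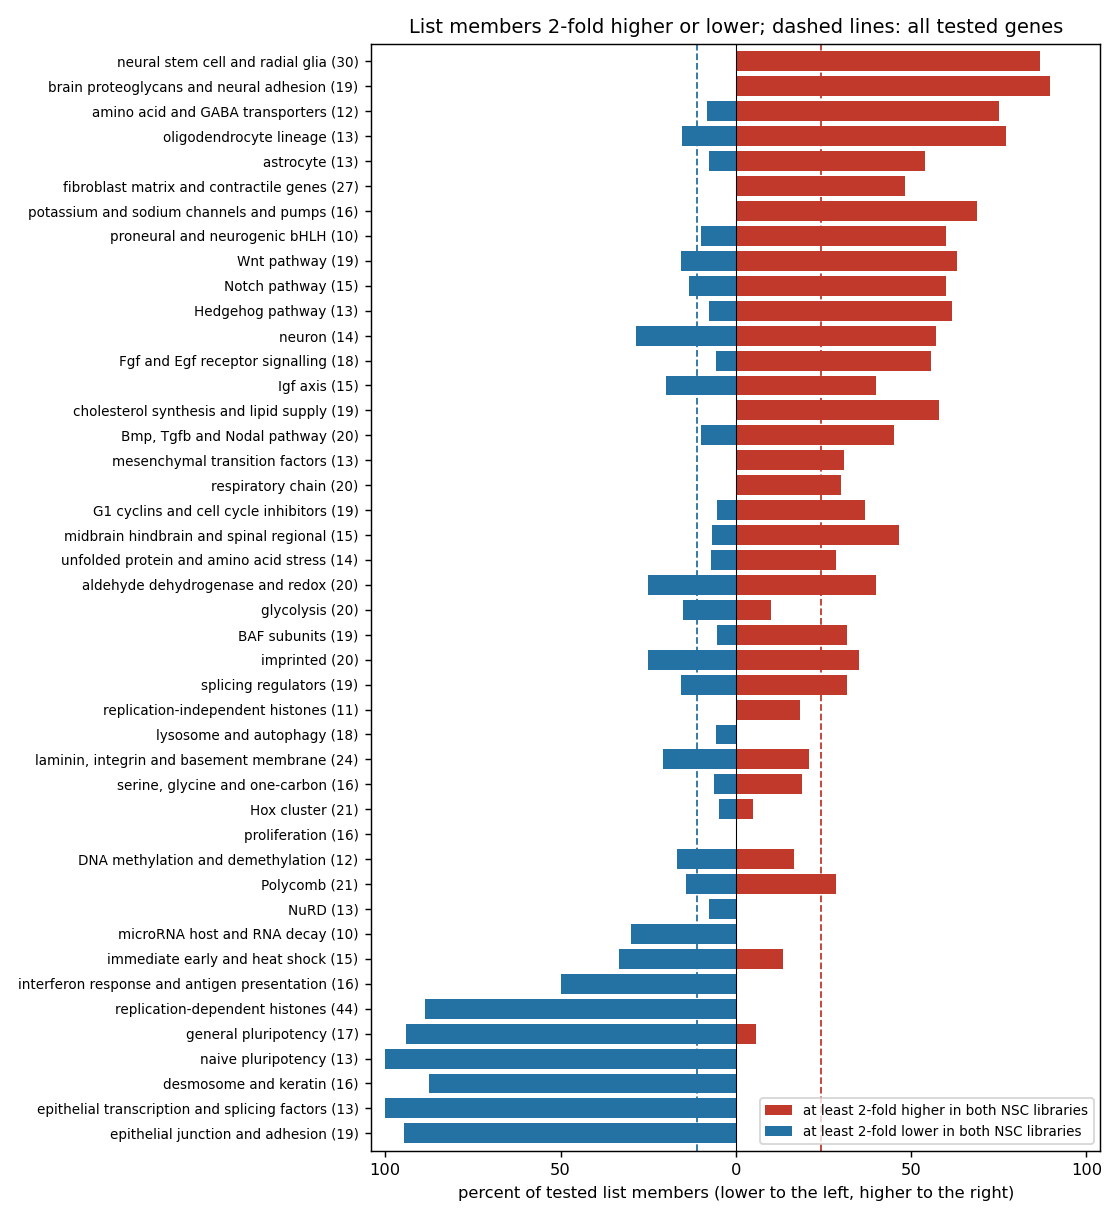
Percent of the tested members of each list at least 2-fold higher in both NSC libraries (red, to the right) or at least 2-fold lower in both (blue, to the left), for lists of 10 or more tested members, with the number tested in brackets and lists ordered by their median log2 ratio. Dashed lines give the share of all tested genes, 24.4% higher and 11.2% lower; neural stem cell and brain matrix lists lie far to the right of it, epithelial and pluripotency lists far to the left.

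Signalling pathways were compared by ligand, receptor and target. In the Notch pathway 9 of 15 genes were higher and 2 lower. The ligand Dll1 stood at 17.8 and 42.7 RPKM in Tomato-positive and Tomato-negative NSC, against 0.461 RPKM on day 6, while the ligand Jag2 was lower at 0.946 and 0.399 RPKM against 23.5 RPKM. Lfng, a glycosyltransferase that modifies Notch, was at 164 and 200 RPKM in Tomato-positive and Tomato-negative NSC, against 5.25 RPKM on day 6. The targets went apart. Hes5 stood at 6.16 and 22.5 RPKM in Tomato-positive and Tomato-negative NSC and had no read on day 6, where 3 reads give 0.0512 RPKM. Hey1 was at 39.04 and 36.4 RPKM in Tomato-positive and Tomato-negative NSC, against 0.702 RPKM on day 6. Hes1, in contrast, was lower at 38.8 and 42.9 RPKM in Tomato-positive and Tomato-negative NSC, against 133 RPKM on day 6.

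Of 18 Fgf and Egf receptor signalling genes 10 were higher and 1 lower. The receptor Fgfr3 stood at 54.6 and 49.6 RPKM in Tomato-positive and Tomato-negative NSC, against 0.474 RPKM on day 6, and Erbb3 was lower at 0.455 and 0.142 RPKM against 16.5 RPKM. Spry2 and Dusp6, feedback inhibitors that Erk signalling induces, were at 148 and 200 RPKM in Tomato-positive NSC and 212 and 259 RPKM in Tomato-negative NSC, against 17.8 and 34.6 RPKM on day 6. Egfr was not called, at 24.0 RPKM in Tomato-positive NSC and 100 RPKM in Tomato-negative NSC, against 16.6 RPKM on day 6. In the Hedgehog pathway 8 of 13 genes were higher and 1 lower. The co-receptors Gas1, Boc and Cdon were at 29.4, 12.2 and 16.8 RPKM in Tomato-positive NSC and 24.2, 12.4 and 27.7 RPKM in Tomato-negative NSC, against 0.257, 0.835 and 2.39 RPKM on day 6. MEF had 65.3, 44.9 and 21.2 RPKM of them, so these levels were not particular to neural cells. The effector Gli2 was lower at 5.29 and 5.32 RPKM in Tomato-positive and Tomato-negative NSC, against 20.1 RPKM on day 6.

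Wnt pathway genes were higher in 12 of 19 and lower in 3. The ligand Wnt7a stood at 21.5 and 25.5 RPKM in Tomato-positive and Tomato-negative NSC, against 1.66 RPKM on day 6, and the receptor Fzd1 at 41.1 and 40.0 RPKM, against 0.735 RPKM. MEF had 0.420 RPKM of Wnt7a but 63.4 RPKM of Fzd1. Axin2, a feedback target, was higher at 8.99 and 21.05 RPKM in Tomato-positive and Tomato-negative NSC, against 0.393 RPKM on day 6, whereas Lef1, a factor of the same pathway, was lower at 3.51 and 0.438 RPKM against 34.0 RPKM. In the Bmp, Tgfb and Nodal list 9 of 20 were higher and 2 lower, or 4 lower when scaled by median-of-ratios factors. Bmp7 stood at 33.4 and 88.7 RPKM in Tomato-positive and Tomato-negative NSC, against 1.76 RPKM on day 6. Nodal and its inhibitor Lefty2 were the lower members. Lefty2 had no read in either NSC library, where 3 reads give 0.0638 RPKM in Tomato-positive and 0.0289 RPKM in Tomato-negative NSC, against 50.3 RPKM on day 6. In the Igf axis 6 of 15 were higher and 3 lower. The binding proteins Igfbp3 and Igfbp5 were at 458 and 163 RPKM in Tomato-positive NSC and 739 and 96.9 RPKM in Tomato-negative NSC, against 5.00 and 0.391 RPKM on day 6. MEF had 564 RPKM of Igfbp3 and 87.2 RPKM of Igfbp5. The RNA-binding Igf2bp1 was lower at 15.1 and 3.42 RPKM in Tomato-positive and Tomato-negative NSC, against 60.4 RPKM on day 6.

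Of 44 replication-dependent histone genes tested 39 were lower and none higher (median -2.48). Their sums were 191 RPKM in Tomato-positive NSC and 201 RPKM in Tomato-negative NSC, against 19346 RPKM on day 6. The difference in level lay mostly in H2A genes. Counted by class over every such gene tested, listed or not, the sum of 19 H2A genes was 41.1 RPKM in Tomato-positive NSC and 41.0 RPKM in Tomato-negative NSC, against 20473 RPKM on day 6. Of these 19 genes 18 were lower and 1 was higher. H4 genes summed to 38.2 and 31.4 RPKM in Tomato-positive and Tomato-negative NSC, against 140 RPKM on day 6, and 8 of 12 were lower. H2B genes were lower in 9 of 15 and higher in 1. Histone copies are near-identical in sequence, so their single levels are uncertain, and these messages normally end without a poly(A) tail. Proliferation genes did not move with them, as none of 16 was higher or lower and the median was -0.16. The day 6 library is also the one with the high Gm42418 share, whose part in the histone result was not tested. Of 11 replication-independent histones 2 were higher and none lower, and H2afy2, a macroH2A gene, was at 98.7 and 64.5 RPKM in Tomato-positive and Tomato-negative NSC, against 12.7 RPKM on day 6.

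Of 19 G1 cyclin and cell cycle inhibitor genes 7 were higher and 1 lower. Cdkn2c, an inhibitor of Cdk4 and Cdk6, stood at 25.9 and 36.5 RPKM in Tomato-positive and Tomato-negative NSC, against 0.485 RPKM on day 6. Cdkn1b was at 45.0 and 47.8 RPKM in Tomato-positive and Tomato-negative NSC, against 10.3 RPKM on day 6, and Cdk6 was lower at 5.17 and 1.75 RPKM against 24.4 RPKM. Inhibitors of the Ink4 and Cip/Kip families thus made up most of the higher members.

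Metabolic genes differed by pathway. Cholesterol synthesis and lipid supply genes were higher in 11 of 19 and lower in none, with a median log2 ratio of 1.498. Scd2, a desaturase of brain, stood at 1781 and 2540 RPKM in Tomato-positive and Tomato-negative NSC, against 220 RPKM on day 6. Hmgcs1, an early enzyme of the mevalonate pathway, was at 897 and 874 RPKM in Tomato-positive and Tomato-negative NSC, against 182 RPKM on day 6, and Sqle, squalene epoxidase, at 244 and 216 RPKM, against 44.5 RPKM. Glycolysis genes were higher in 2 of 20 and lower in 3. The glucose transporter Slc2a3 was at 20.1 and 20.2 RPKM in Tomato-positive and Tomato-negative NSC, against 279 RPKM on day 6, and Hk2, a hexokinase, at 25 and 21.9 RPKM, against 114 RPKM. The phosphofructokinase genes crossed. Pfkp was lower, at 28.8 and 23.4 RPKM in Tomato-positive and Tomato-negative NSC against 129 RPKM on day 6, and Pfkm higher, at 114 and 154 RPKM against 27.9 RPKM; with the highest exon of each gene Pfkm was no longer called. Respiratory chain genes were higher in 6 of 20 and lower in none, where 24.4% of all tested genes were higher. With the median exon of each gene 11 were higher. Cox6a1, a subunit of cytochrome oxidase, was at 729 and 700 RPKM in Tomato-positive and Tomato-negative NSC, against 132 RPKM on day 6. It was between 624 and 947 RPKM in brain NSC, MEF, ESC and iPSC, so day 6 was its lowest library.

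In serine, glycine and one-carbon metabolism 3 of 16 were higher and 1, Tdh, lower. Phgdh, the first enzyme of serine synthesis, stood at 235 and 260 RPKM in Tomato-positive and Tomato-negative NSC, against 73.1 RPKM on day 6. Aldehyde dehydrogenase and redox genes were higher in 8 of 20 and lower in 5. Beside Aldh3a1, the lower ones included Aldh1a1, a retinaldehyde dehydrogenase, at 4.54 and 1.02 RPKM in Tomato-positive and Tomato-negative NSC, against 134 RPKM on day 6, and Gpx2, an epithelial glutathione peroxidase, at 0.197 and 0.0893 RPKM, against 48.3 RPKM. Aldh1l1, a folate enzyme used as a marker of astrocytes, was higher at 23.2 and 41.3 RPKM in Tomato-positive and Tomato-negative NSC, against 0.885 RPKM on day 6, while brain NSC had 1.14 RPKM.

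Interferon response and antigen presentation genes were lower in 8 of 16 and higher in none, with a median of -1.60. Bst2, an antiviral membrane protein, stood at 41.5 and 26.5 RPKM in Tomato-positive and Tomato-negative NSC, against 256 RPKM on day 6. H2-D1, a class I antigen chain, was at 23.9 and 11.9 RPKM in Tomato-positive and Tomato-negative NSC, against 124 RPKM on day 6. Immediate early and heat shock genes were lower in 5 of 15 and higher in 2. Fos was at 8.11 and 9.19 RPKM in Tomato-positive and Tomato-negative NSC, against 29.8 RPKM on day 6, and Atf3 at 2.20 and 3.78 RPKM, against 19.6 RPKM.

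Chromatin genes were counted by complex, beside 24.4% higher and 11.2% lower among all tested genes. Of 19 BAF remodeler subunits 6 were higher and 1 lower. Smarcd3, a subunit of neural and cardiac complexes, stood at 47.0 and 77.5 RPKM in Tomato-positive and Tomato-negative NSC, against 0.539 RPKM on day 6. Its paralogue Smarcd2 was lower at 20.0 and 13.9 RPKM in Tomato-positive and Tomato-negative NSC, against 74.1 RPKM on day 6, and Smarcd1, chosen after its values were seen, was not called at 87.7 and 94.6 RPKM against 68.8 RPKM. Within the Smarcd family the order of the 3 genes thus differed between the NSC libraries and day 6. Smarcd3 was also at 41.9 RPKM in MEF, 30.1 RPKM in iPSC and 10.7 RPKM in ESC. Day 6 was therefore its lowest library, and its level was not particular to neural cells. Dpf1, a neural subunit, was at 42.9 and 41.8 RPKM in Tomato-positive and Tomato-negative NSC, against 6.49 RPKM on day 6. Polycomb genes were higher in 6 of 21 and lower in 3, and under median-of-ratios scaling higher in 3 and lower in 5. Phc2 was at 92.2 and 90.5 RPKM in Tomato-positive and Tomato-negative NSC, against 18.7 RPKM on day 6, and Ezh1, a histone methyltransferase, at 3.86 and 3.20 RPKM, against 16.9 RPKM. In NuRD 1 of 13, Mta3, was lower, at 28.2 and 20.8 RPKM in Tomato-positive and Tomato-negative NSC against 85.1 RPKM on day 6, and under median-of-ratios scaling 3 were lower. Of 12 DNA methylation and demethylation genes 2 were lower and 2 higher. Tet2, a 5-methylcytosine dioxygenase, was at 6.13 and 12.3 RPKM in Tomato-positive and Tomato-negative NSC, against 62.2 RPKM on day 6, and Dnmt3b, a methyltransferase, at 6.62 and 2.28 RPKM, against 22.7 RPKM. Mbd1, which binds methylated DNA, was higher but was not called under median-of-ratios scaling.

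Imprinted genes went both ways, with 7 of 20 higher and 5 lower. After Mest, the highest ratio was that of Nnat, neuronatin, at 680 and 1151 RPKM in Tomato-positive and Tomato-negative NSC, against 6.00 RPKM on day 6. Ndn, necdin, was at 71.4 and 97.9 RPKM in Tomato-positive and Tomato-negative NSC, against 5.66 RPKM on day 6. All 3 are expressed from the paternal allele. Grb10, an adaptor that restrains growth signals, was lower at 0.908 and 0.422 RPKM in Tomato-positive and Tomato-negative NSC, against 32.5 RPKM on day 6. Among splicing regulators 6 of 19 were higher and 3 lower. Ptbp2, the neural polypyrimidine tract protein, was at 92.9 and 93.9 RPKM in Tomato-positive and Tomato-negative NSC, against 9.10 RPKM on day 6, and Nova1, a neural splicing factor, at 17.6 and 31.8 RPKM, against 0.214 RPKM. Ptbp1, the broadly expressed paralogue chosen after its values were seen, was not called at 317 and 172 RPKM in Tomato-positive and Tomato-negative NSC and 277 RPKM on day 6. The RNA-binding Lin28a and Lin28b, which block the maturation of let-7 microRNAs, were lower, with Lin28a at 0.912 and 0.112 RPKM in Tomato-positive and Tomato-negative NSC, against 10.3 RPKM on day 6.

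Markers of other cell types and stress genes were counted in the same way. Lysosome and autophagy genes had 1 of 18 lower and none higher. Microglia and leukocyte genes had 4 of 12 members at 2 RPKM in any of the 3 libraries, and 2 of these, Cd68 and Laptm5, were lower, Laptm5 at 0.684 and 0.0967 RPKM in Tomato-positive and Tomato-negative NSC, against 63.5 RPKM on day 6 and 293 RPKM in iPSC. Of 6 endothelial genes 1 was higher and 2 lower, of 7 keratinocyte and trophoblast genes 1 was higher and 4 lower, and of 6 germ line genes 1 was higher and 3 lower. Among the last, Piwil2 stood at 0.0857 and 0.121 RPKM in Tomato-positive and Tomato-negative NSC, against 46.5 RPKM on day 6. The neural crest list had 7 tested members, 3 higher and 2 lower, among them Ngfr, the low-affinity neurotrophin receptor. It was at 1.91 and 0.373 RPKM in Tomato-positive and Tomato-negative NSC, against 72.4 RPKM on day 6. Unfolded protein and amino acid stress genes were higher in 4 of 14 and lower in 1. Of the muscle and of the choroid plexus and ependyma genes 3 each were tested, with 1 muscle gene higher and 1 lower, and 2 choroid plexus and ependyma genes higher and 1 lower.

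The 2 NSC libraries did not differ from day 6 in the same way everywhere. Tomato-positive NSC alone had 2057 genes higher and 955 lower, and Tomato-negative NSC alone had 2004 higher and 1330 lower, so 1842 genes were called in 1 of the pairs only. Between the NSC libraries themselves, 425 tested genes were at least 4-fold higher in Tomato-positive NSC and 135 at least 4-fold lower. Col2a1, the main collagen of cartilage and notochord (chromosome 15, 97975602 to 98004695), stood at 268 RPKM in Tomato-positive NSC, 3.27 RPKM in Tomato-negative NSC and 0.631 RPKM on day 6. Thbs2, a matrix thrombospondin, was at 87.9, 0.746 and 2.54 RPKM in the same libraries. Anxa1, an annexin, was at 265 RPKM in Tomato-positive NSC, 3.91 RPKM in Tomato-negative NSC and 289 RPKM on day 6. Tomato-positive NSC was thus level with day 6 in Anxa1 and far above it in Col2a1. Prl2c3, a prolactin family hormone, was at 76.7 and 0.507 RPKM in Tomato-positive and Tomato-negative NSC and had no read on day 6, where 3 reads give 0.115 RPKM.

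Keratins on chromosome 15 made up another 4 of the 8 genes with the largest excess in Tomato-positive NSC among those called in 1 of the pairs only. Keratins at least 4-fold from day 6 on opposite sides in the 2 NSC libraries are outside that count and are given at the end. Krt6b and Krt6a stood at 134 and 127 RPKM in Tomato-positive NSC and 0.0851 and 0.200 RPKM in Tomato-negative NSC, against 48.9 and 43.2 RPKM on day 6. Krt5 was at 75.8 RPKM in Tomato-positive NSC and 18.5 RPKM on day 6, with no read in Tomato-negative NSC, where 3 reads give 0.0325 RPKM. Krt73 was at 50.4, 0.0110 and 12.1 RPKM in Tomato-positive NSC, Tomato-negative NSC and day 6. Brain NSC had no read of these 4 genes. In the neighbouring Krt71, all 9 exons, of 35 to 760 bases, held 262 reads in Tomato-positive NSC, none in Tomato-negative NSC and 134 on day 6. A read number that does not follow exon length is not a level per length. Read numbers within 5% or 2 reads of the median over the exons are called near-equal here. In Tomato-positive NSC they were found on 5 of 9 exons of Krt73 and 4 of 9 of Krt5 and Krt6b, so the levels of these 3 are given with that limit, and the cause was not tested. In all, 246 tested genes had near-equal read numbers on at least 75% of their exons, 22 of them called higher and 37 lower, counting genes of 3 exons or more, a median of 20 reads or more and a longest exon at least 1.5 times the shortest.

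In the other direction, Kcna2, a potassium channel, stood at 1.82 RPKM in Tomato-positive NSC and 77.8 RPKM in Tomato-negative NSC, with no read on day 6, where 3 reads give 0.125 RPKM. Brain NSC had 54.0 RPKM of Kcna2, and Tomato-negative NSC was the nearer of the lines to it. Atp1a4, a sodium pump subunit of testis, was at 5.60 and 176 RPKM in Tomato-positive and Tomato-negative NSC and 8.02 RPKM on day 6, with near-equal read numbers on 7 of its 23 exons. Igfbp1, an Igf binding protein of liver, was at 0.138 and 11.5 RPKM in Tomato-positive and Tomato-negative NSC and 0.0285 RPKM on day 6. Myh8, a perinatal muscle myosin, Cacna2d3, a calcium channel subunit, and Gramd1c, a sterol transporter, were at 39.7, 20.1 and 34.2 RPKM in Tomato-negative NSC, against 2.66, 0.984 and 3.03 RPKM in Tomato-positive NSC and 0.453, 0.0412 and 6.88 RPKM on day 6.

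Exons were compared within genes, as the level of an exon over the level of its gene. Of 94878 exons tested in 10268 genes, 2654 (2.8%) had a higher share in both NSC libraries than on day 6 and 1250 (1.32%) a lower one, by at least 1.5 on the log2 scale with 0.05 added to each share. The other libraries were compared over called exons whose gene reached 5 RPKM in them. The share was nearer the NSC libraries than day 6 for 98.0% of these exons in brain NSC and 93.4% in MEF. In iPSC it was nearer for 90.4% and in ESC for 87.8%. In each of these libraries most called exons thus had a share nearer the NSC libraries, so the NSC shares were mostly not particular to NSC. The exons were called because day 6 differed from both NSC libraries, and exons not called were not counted in this way. The percentages are therefore not read as a trait of the called exons. Day 6 is also the library with uneven exons, so the part of RNA quality or of library making in these exons was not tested. The Ctnnd2 exon at chr15:30480782-30480894 of delta-catenin had a share of 1.61 in Tomato-positive NSC and 1.93 in Tomato-negative NSC, and no read on day 6. In Frmd4a, a scaffold protein of cell polarity, the exon at chr2:4534546-4534611 had shares of 1.52 and 1.60 in Tomato-positive and Tomato-negative NSC and no read on day 6, with 0.0513 in iPSC and 0.227 in ESC. That exon was thus near 0 in iPSC as well, unlike the Csad exon at chr15:102179971-102180087, with shares of 1.23 and 1.28 in Tomato-positive and Tomato-negative NSC, no read on day 6 and 1.04 or more in every other library.

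Exons with a lower share were described in the same way. The Eci1 exon at chr17:24426683-24426742, in a gene of fatty acid oxidation, had no read in either NSC library and a share of 2.95 on day 6. Its share was at most 0.0477 in any other library. The Hmgn1 exon at chr16:96127590-96127729, in a nucleosome-binding protein gene, had shares of 0.0142 and 0.00301 in Tomato-positive and Tomato-negative NSC, against 2.27 on day 6. In any other library this share was at most 0.0744. Tmem39a, a membrane protein gene, had its exon at chr16:38558698-38558762 without a read in either NSC library, at a share of 2.07 on day 6 and at 0.523 in iPSC and 0.472 in ESC.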

How the data were processed

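RNA of 7 cell populations was sequenced, and the authors deposited 1 table of RPKM values per exon, with 1 column per library. Per the submitters' processing notes, which give no roles or order, the tools were TopHat2 2.0.10, bedtools, Bowtie and CASAVA 1.8.2 and the build was mm10, and whether strand was used in counting is not given in the sources used here. Of 279252 exons, 270168 (96.7%) matched an exon of GENCODE M21, which gave 29686 genes, and 6724 exons belong to more than 1 gene. Gene levels are length-weighted means of exon RPKM. Log2 ratios have 1 RPKM added. Genes under 2 RPKM in all 3 libraries were left out, calls were made at 4-fold and lists were counted at 2-fold, in both pairs. Depth was inferred at 19 to 58 M reads from RPKM steps, with about 96% of the values up to 5000 reads whole within 0.01 reads or a relative 1e-05, so only counting error could be stated and none is used as a test. The labels name no replicates. The members and lists were chosen with earlier results of these data known. Named were the 15 highest and 15 lowest genes, leaving out unnamed gene models, pseudogenes and replication-dependent histones, up to 6 genes per list, 8 genes in each direction of difference between the NSC libraries among genes called in 1 pair only, 8 exons in each direction and fixed anchors. Other genes named were chosen after their values were seen. Calculations used python 3.11.15, numpy 2.4.6, pandas 2.3.3 and matplotlib 3.10.9. They were tested on simulated data. Alternatives covered scaling, pseudocount, floor, the exon summary, shared exons, biotype and fold. Some genes of these lists, although counted, are not reported here by name.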

Additional observations from a re-analysis of the deposited data

Results flagged for a closer look

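In 5 genes the NSC libraries lay at least 4-fold from day 6 on opposite sides, a difference that was not tested. Arg1, arginase of the urea cycle, stood at 31.2 RPKM in Tomato-positive NSC and 0.304 RPKM in Tomato-negative NSC, against 5.51 RPKM on day 6, with a log2 ratio of 4.63 between the NSC libraries. MEF had 861 RPKM of Arg1. The other 4 lie in the keratin cluster of chromosome 15 and had no read in Tomato-negative NSC. Krt71 stood at 56.8 RPKM in Tomato-positive NSC and 12.0 RPKM on day 6 (5.85 between the NSC libraries). Krt72 stood at 63.1 RPKM in Tomato-positive NSC and 13.4 RPKM on day 6 (6.00). Krt74 stood at 75.3 RPKM in Tomato-positive NSC and 15.9 RPKM on day 6 (6.25), and Gm5414 at 94.3 and 14.9 RPKM (6.57). These ratios include 1 added RPKM, and in Tomato-positive NSC the read number was near-equal (within 5% or 2 reads of the median) on 9 of 9 exons of Krt71 and Krt74, 8 of 9 of Krt72 and 6 of 9 of Gm5414 whatever their length, the cause of which was not tested.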

How the results depend on the processing

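The 30 genes furthest from day 6 kept their 4-fold call in every alternative tried. They were picked for the largest ratios in these data, and St14, the nearest of them to the cut, had a smaller log2 ratio of -6.51. The alternatives could thus hardly have removed them, and their staying is no support for the other calls. With a pseudocount of 0.25 RPKM 2121 genes were higher, and with 4 RPKM 654 were higher and 496 lower, against 1394 and 853. At 8-fold 544 were higher and 436 lower, and 152 list members were called, against 419. Tomato-negative NSC alone gave 1330 lower genes. Scaling by median-of-ratios left 996 higher and 1178 lower genes, and scaling to equal sums 1249 and 927. With the median exon of each gene, an alternative chosen after seeing the data, 1850 were higher and 870 lower, of which 1318 and 779 were also called with the mean. Leaving out genes with near-equal read numbers on their exons, also chosen after seeing the data, gave 1372 and 816. A gene floor of 20 RPKM gave 2340 exons with a changed share, 1548 higher and 792 lower, against 3904. No named gene that was called changed sign in these alternatives, but median-of-ratios scaling turned the balance of calls to 45.8% higher, against 62.0%, and that of laminin and integrin genes to 2 higher and 8 lower, against 5 and 5. Polycomb genes turned to 3 higher and 5 lower under it, against 6 and 3. The causes of these moves were not tested. No paired analysis was possible because each group has 1 library and the results come from no test. Depth limits genes near 2 RPKM most in Tomato-positive NSC, the library with the fewest reads.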
